A study of Homo sapiens with 6 samples.

Results

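The genes described here encode 8 cytoplasmic intermediate filament proteins and 2 nuclear lamins: VIM, NES, NEFL, NEFM, INA, KRT8, KRT18, KRT19, LMNA and LMNB1. They were taken by name from the count table, where all 10 were found among 53712 gene names. All 10 passed the filter on low counts, which kept 17596 genes. The set was put together with results of the same comparison in view, so its values are given as a description with no test, and they support nothing about the family as a whole.

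RNA was sequenced from the human embryonic stem cell line H9, kept in RSeT, a culture medium for naive-type human pluripotent cells. The tested libraries came from cells given UNC1999, an inhibitor of EZH2 and EZH1, the methyltransferases of Polycomb repressive complex 2 (PRC2). The others came from cells given UNC2400, a closely related compound of low activity against these enzymes. Both compounds were used at 2.5 µM for 48 h, with 3 libraries each. From 24 h after passage all cells also received DZNep (10 nM), which blocks S-adenosylhomocysteine breakdown, and TSA (5 nM), which inhibits histone deacetylases. The series therefore holds no library free of these agents. It rests on a single cell line, and the labels do not say whether replicates are separate cultures. Spread between libraries may thus be partly technical.

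Intermediate filaments are rope-like polymers of coiled-coil proteins that give cells and nuclei mechanical strength, and cell types differ in which members they use. Keratins form filaments only as pairs of a type I and a type II protein, vimentin (type III) assembles alone, neurofilament proteins and nestin (type IV) co-assemble with others, and lamins (type V) line the inner nuclear membrane. Pluripotent stem cells are known for simple-epithelial keratins, vimentin and B-type lamins, with little A-type lamin until they differentiate.

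Total counts ran from 29699441 to 42345448 per library, so that a count of 0 allows up to 0.0718 to 0.104 CPM, counting error only. CPM are counts scaled to library size, here adjusted by trimmed mean of M values (TMM), which allows for library composition. Fold changes and calls come from edgeR's quasi-likelihood test with Benjamini-Hochberg adjustment over all genes tested. At an adjusted p under 0.05, 52.7% of tested genes were called, 26.8% as higher and 25.9% as lower in UNC1999. On the first principal component, UNC1999 replicate 1 scored -20.1, the other UNC1999 libraries -39.3 and -41.4, and the UNC2400 libraries 31.6 to 35.2. Of the UNC1999 libraries, replicate 1 was also the nearest to the UNC2400 mean for 8 of the 10 genes, and values without it are given below. Fewer expressing cells and less RNA per cell cannot be told apart in such bulk libraries.

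Of the 10 genes, 8 were called higher in UNC1999 (VIM, NES, NEFL, NEFM, INA, KRT18, KRT19 and LMNA), 1 lower (LMNB1), and KRT8 was not called. For the same 9 genes the UNC1999 and UNC2400 libraries did not overlap: 8 with UNC1999 higher and 1 with it lower. Groups were apart for 60.6% of all tested genes, with UNC1999 higher for 30.9% and lower for 29.7%. Calls and separated groups are common over the whole table, and the set was chosen on this contrast, so nothing is read from these counts. The median log2 fold change was 0.47 over the 10 genes and 0.02 over all tested genes. Folds were unequal: NEFL, LMNA, VIM and NES lay above 1.8-fold, NEFM and INA near 1.4-fold, KRT18 and KRT19 below 1.2-fold.

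**Figure D1:**
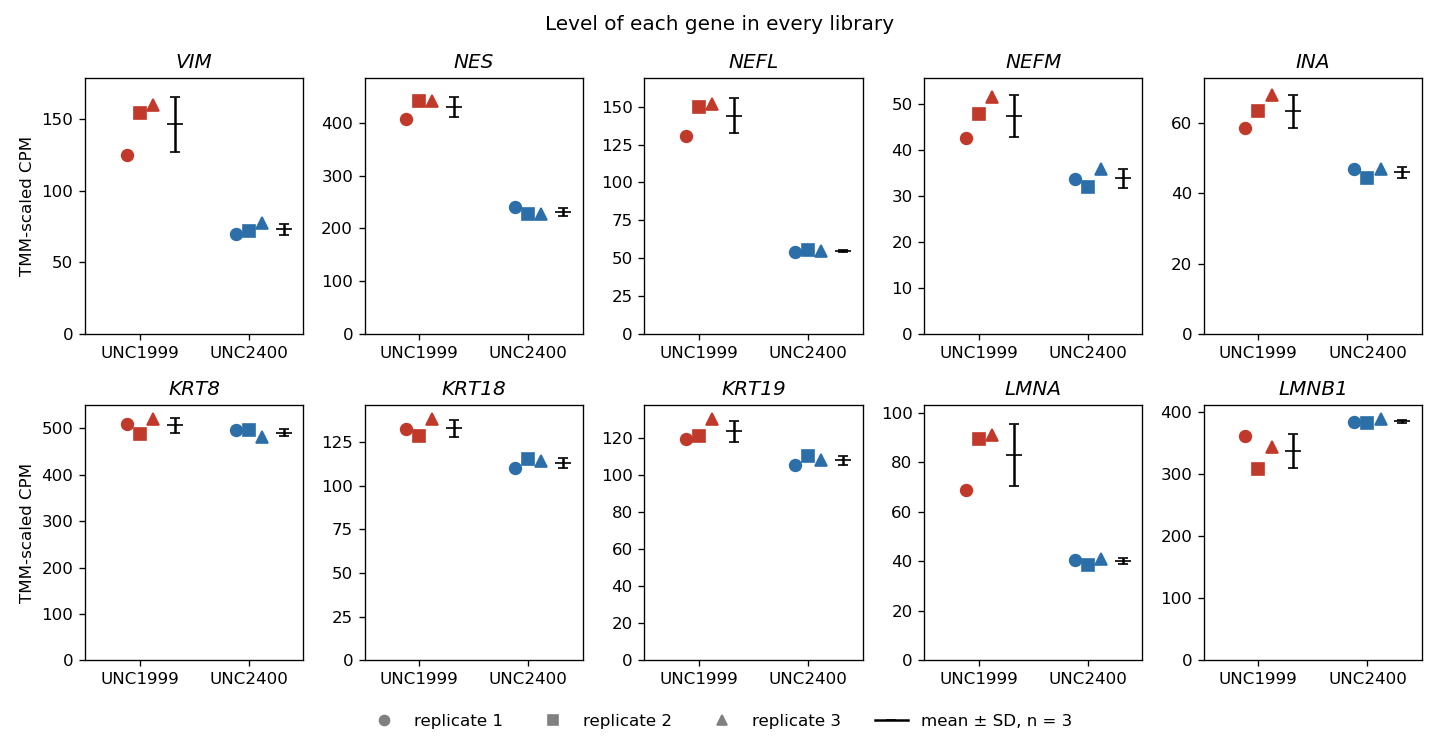
Level of each gene in every library, in TMM-scaled CPM on axes that start at 0, with UNC1999 libraries in red and UNC2400 libraries in blue, symbols for replicates and black bars for mean ± SD (n = 3). Libraries of the compounds overlap for KRT8 alone, and UNC1999 replicate 1 is the lowest UNC1999 library for VIM, NES, NEFL, NEFM, INA, KRT19 and LMNA.

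VIM encodes vimentin, the type III protein typical of mesenchymal and many dividing cells. Its level was 124.8, 154.3 and 160.0 CPM in UNC1999 replicates 1 to 3, and 70.1, 72.1 and 77.4 CPM in UNC2400 replicates 1 to 3. All UNC1999 libraries were higher, and replicate 1 was the lowest of them. The log2 fold change was 1.0 ± 0.08 (SE), or 1.08 without UNC1999 replicate 1. VIM-AS1, a non-coding gene annotated antisense to VIM, had 157 counts over the UNC1999 libraries and 92 over the UNC2400 libraries, 0.866 to 1.33% of the counts of VIM in each library. The strand setting of the counting is not given, so reads of the pair cannot be separated.

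NES encodes nestin, a large type IV protein of neural progenitors and other immature cells that needs partners such as vimentin to form filaments. It had 407.7, 441.1 and 442.0 CPM in UNC1999 libraries, against 240.2, 226.8 and 227.6 CPM in UNC2400 libraries. The UNC1999 values were close together and all above the UNC2400 values. Its log2 fold change was 0.89 ± 0.05 (SE), and 0.91 without UNC1999 replicate 1. Within a library, the count ratio of NES to VIM was 2.96 ± 0.267 in UNC1999 and 3.17 ± 0.244 in UNC2400 (SD, n = 3 each), and the groups overlapped.

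NEFL encodes the light neurofilament protein, the core subunit of axonal filaments. It had 131.0, 149.7 and 151.8 CPM in UNC1999 libraries, against 54.3, 55.4 and 54.7 CPM in UNC2400 libraries. The UNC2400 libraries barely differed (coefficient of variation 1.06%), while those of UNC1999 spread by 7.95%, with replicate 1 the lowest. The log2 fold change of 1.39 ± 0.06 (SE), a 2.63-fold level, was the largest of the 10 and lay at percentile 98.5 of all tested genes.

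NEFM encodes the medium neurofilament protein and lies, like NEFL, on chromosome 8. It had 42.6, 48.0 and 51.6 CPM in UNC1999 libraries, against 33.8, 31.9 and 36.0 CPM in UNC2400 libraries, a log2 fold change of 0.49 ± 0.07 (SE). The groups were apart, but the gap was small beside that of NEFL. INA, which encodes the neuronal protein alpha-internexin, had 58.5, 63.6 and 67.9 CPM in UNC1999 libraries, against 46.9, 44.3 and 46.9 CPM in UNC2400 libraries. Its log2 fold change was 0.46 ± 0.06 (SE), close to that of NEFM.

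Proportions among neurofilament transcripts therefore differed between the compounds. The count ratio of NEFL to NEFM within a library was 3.08, 3.12 and 2.94 in UNC1999 libraries, against 1.60, 1.74 and 1.52 in UNC2400 libraries. The groups were far apart relative to their spread. The ratio of NEFM to INA was 0.747 ± 0.0175 in UNC1999 and 0.736 ± 0.0269 in UNC2400 (SD, n = 3 each), with overlapping groups. Summed over the type IV genes NES, NEFL, NEFM and INA, the level was 640, 702 and 713 CPM in UNC1999 libraries, against 375, 358 and 365 CPM in UNC2400 libraries.

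Keratins were high in both groups and differed little. KRT8, the type II keratin of simple epithelia, had 508.4, 488.5 and 520.9 CPM in UNC1999 libraries, against 495.2, 495.6 and 481.6 CPM in UNC2400 libraries. The groups overlapped, and the log2 fold change was 0.04 (95% interval -0.07 to 0.15). KRT18, its type I partner, had 132.3, 128.3 and 138.0 CPM in UNC1999 libraries, against 110.1, 115.6 and 113.9 CPM in UNC2400 libraries, a log2 fold change of 0.23 ± 0.05 (SE). With offsets for gene span, exon length and GC content, described below, it was -0.04 and not past the threshold.

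KRT19, a type I keratin that also pairs with KRT8, had 119.5, 120.9 and 130.0 CPM in UNC1999 libraries, against 105.4, 110.1 and 107.9 CPM in UNC2400 libraries. Its log2 fold change was 0.20 ± 0.05 (SE). It was no longer past the threshold without UNC1999 replicate 3 (0.14) or with the same offsets, where its sign turned (-0.03). For KRT18 and for KRT19 all UNC1999 libraries were above all UNC2400 libraries. The count ratio of KRT8 to KRT18 was 3.81 ± 0.0337 in UNC1999 and 4.34 ± 0.143 in UNC2400 (SD, n = 3 each), with all UNC1999 libraries lower. KRT19 to KRT18 was 0.929 ± 0.0224 in UNC1999 and 0.952 ± 0.00534 in UNC2400 (SD, n = 3 each). These ratios carry no offsets. With the offsets the log2 fold change was 0.17 for KRT8 and -0.04 for KRT18, the reverse of their order in the main fit. The direction of the KRT8 to KRT18 difference thus depends on the offsets.

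Keratin counts carry a limit, since KRT8 and KRT18 have many processed pseudogenes and nothing states how multiply matching reads were counted. The table lists 44 KRT8 pseudogenes and 39 KRT18 pseudogenes. Their summed counts were 1.73 to 2.97% of those of KRT8 and 0.641 to 1.24% of those of KRT18 in each library. KRT8P12 held the most, with 833 counts over the UNC1999 libraries and 610 over the UNC2400 libraries. How far reads of KRT8 and KRT18 were lost to or gained from these copies is unknown, so their values are uncertain.

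LMNA encodes lamins A and C, the A-type lamins, which gene counts cannot tell apart. It had 68.6, 89.4 and 90.8 CPM in UNC1999 libraries, against 40.7, 38.6 and 40.9 CPM in UNC2400 libraries. UNC1999 replicate 1 was well below the other UNC1999 libraries and still above all UNC2400 libraries. The log2 fold change was 1.05 ± 0.08 (SE), and 1.15 without UNC1999 replicate 1.

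LMNB1 encodes lamin B1, a B-type lamin present in nearly all cells. It had 361.6, 307.4 and 342.7 CPM in UNC1999 libraries, against 383.8, 382.6 and 387.5 CPM in UNC2400 libraries. All UNC1999 libraries were lower, by amounts that differed among them, while the UNC2400 libraries varied by 0.666% (coefficient of variation). The log2 fold change was -0.19 ± 0.06 (SE), and -0.26 without UNC1999 replicate 1. Without UNC2400 replicate 3 it was -0.19 and just missed the threshold.

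The balance of A-type to B-type lamin transcripts shifted with these changes. The count ratio of LMNA to LMNB1 was 0.19, 0.291 and 0.265 in UNC1999 libraries, against 0.106, 0.101 and 0.106 in UNC2400 libraries. Per kb of principal transcript too, LMNA was below LMNB1 in every library. The sum of LMNA and LMNB1 was 420 ± 20.3 CPM in UNC1999 and 425 ± 3.6 CPM in UNC2400 (SD, n = 3 each). LMNB2, which encodes the other B-type lamin and was not in the chosen set, fell: it had 411 ± 16.7 CPM in UNC1999 and 515 ± 12.4 CPM in UNC2400 (SD, n = 3 each). Its log2 fold change was -0.32 ± 0.05 (SE; edgeR adjusted p = 7.44e-05).

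**Figure D2:**
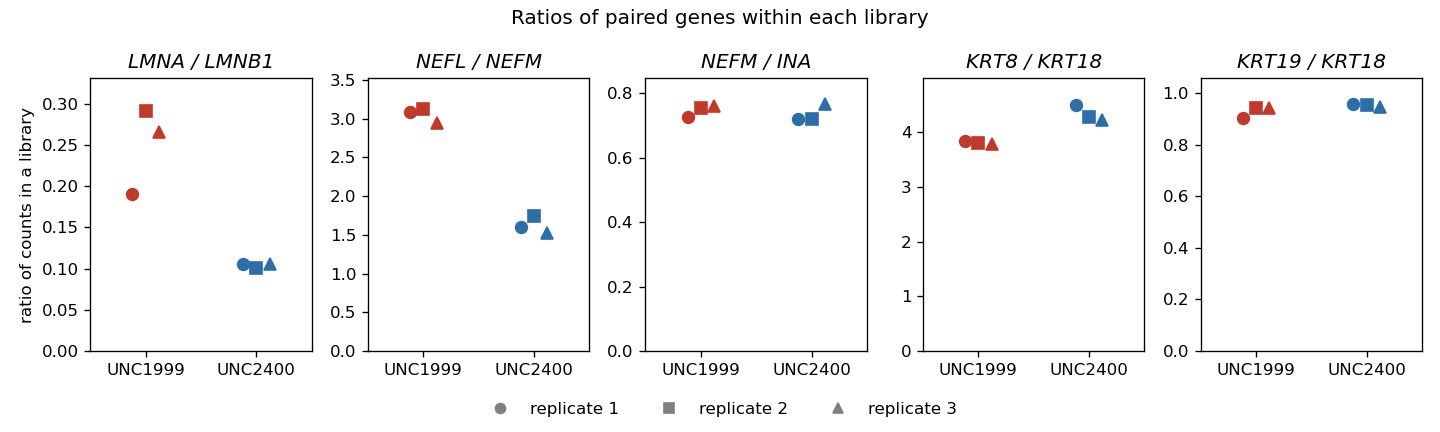
Count ratios of paired genes within each library, on axes that start at 0, for UNC1999 libraries in red and UNC2400 libraries in blue, with symbols for replicates. The LMNA to LMNB1 and NEFL to NEFM ratios are higher in all UNC1999 libraries, and the NEFM to INA ratios overlap. The KRT8 to KRT18 ratios are lower in UNC1999, a direction that depends on the absence of span, exon length and GC offsets.

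Levels can be ordered between genes only per length. In CPM per kb of the principal GENCODE transcript, UNC1999 libraries had KRT8 first at 238, then LMNB1 at 117, KRT19 at 88.8, KRT18 at 85.0, NES at 77.4, VIM at 68.6, NEFL at 35.3, LMNA at 26.0, INA at 19.6 and NEFM at 11.8 (means, n = 3). Of these neighbours, KRT19 and KRT18 overlapped between libraries, as did NES and VIM. In UNC2400 libraries the order was KRT8 at 231, LMNB1 at 134, KRT19 at 77.6, KRT18 at 72.5, NES at 41.7, VIM at 34.3, INA at 14.2, NEFL at 13.4, LMNA at 12.6 and NEFM at 8.43 CPM per kb (means, n = 3), and no neighbours overlapped. On this scale NEFL and LMNA ranked above INA in UNC1999 and below it in UNC2400. With the joined length of all annotated exons in place of the principal transcript, LMNB1 ranked first in both groups and NES took rank 2 in UNC1999 and rank 4 in UNC2400. LMNA then ranked below INA in both groups, while NEFL was still above INA in UNC1999 and below it in UNC2400. The order therefore rests in part on the transcript lengths assumed.

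The genes also differed in how alike their profiles over the 6 libraries were. By the root mean square difference of centred log2 CPM, the closest pairs among the 10 were KRT18 with KRT19 (0.027), NEFM with INA (0.038) and VIM with LMNA (0.053), and the farthest was NEFL with LMNB1 (0.802). Among the 10325 tested genes of at least 3 log2 CPM on average, the profile most like that of LMNA was that of the integrin subunit gene ITGA5 (0.041). The profile most like that of VIM was that of the galectin gene LGALS12 (0.036). DACT1 was closest to NES (0.035) and SOAT1, the gene of an enzyme that forms cholesterol esters, to NEFL (0.056). Further ones were SELRC1 for NEFM (0.028), C22orf39 for INA (0.014), ATPIF1 for KRT8 (0.0071), EI24 for KRT19 (0.011) and KIAA0391 for LMNB1 (0.014). All profiles share the same 6 libraries and the same contrast.

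Promoter sequence was examined as a feature that the choice of genes did not use. Windows from RefSeq (GRCh38.p14) were found for 6 of the 10 genes, and for 4 of them, VIM, NES, INA and LMNB1, a window began within 100 bp of the principal GENCODE start on the same build. For LMNA and KRT8 the listed starts lay elsewhere. The 250 bases before the start are printed for these 4 genes, which fall into the groups described above (VIM and NES among the largest folds, INA smaller, LMNB1 lower). Each runs 5′ to 3′ on the gene's strand, and capitals mark CG dinucleotides, the base pairs at which vertebrate DNA is methylated and which are dense in CpG islands.
VIM, chr10:17227991-17228240, plus strand: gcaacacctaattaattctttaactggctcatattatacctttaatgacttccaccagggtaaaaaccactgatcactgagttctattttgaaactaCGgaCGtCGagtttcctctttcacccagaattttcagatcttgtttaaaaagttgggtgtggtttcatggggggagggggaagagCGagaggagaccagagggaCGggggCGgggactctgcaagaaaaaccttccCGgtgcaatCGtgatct
NES, chr1:156677408-156677657, minus strand: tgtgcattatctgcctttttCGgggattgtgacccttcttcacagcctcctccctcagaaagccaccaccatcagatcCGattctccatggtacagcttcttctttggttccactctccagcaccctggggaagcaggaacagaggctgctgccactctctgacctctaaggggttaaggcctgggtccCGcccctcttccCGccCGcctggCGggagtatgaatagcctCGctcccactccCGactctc
INA, chr10:103276888-103277137, plus strand: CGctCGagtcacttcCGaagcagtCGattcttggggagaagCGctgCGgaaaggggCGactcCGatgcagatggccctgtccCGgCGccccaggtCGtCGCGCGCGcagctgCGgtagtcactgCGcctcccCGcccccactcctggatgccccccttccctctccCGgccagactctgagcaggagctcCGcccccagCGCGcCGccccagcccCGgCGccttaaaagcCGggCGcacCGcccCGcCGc
LMNB1, chr5:126776886-126777135, plus strand: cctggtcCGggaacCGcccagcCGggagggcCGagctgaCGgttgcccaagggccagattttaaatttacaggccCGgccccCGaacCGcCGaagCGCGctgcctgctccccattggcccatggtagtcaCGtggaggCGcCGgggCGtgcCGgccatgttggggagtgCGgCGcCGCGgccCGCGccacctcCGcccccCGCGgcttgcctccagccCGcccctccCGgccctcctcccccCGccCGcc
The stretch before VIM and that before NES held 8 CG dinucleotides each, against 30 before INA and 29 before LMNB1. Over all 35116 windows in the table the median was 11 (interquartile range 3 to 23). All motifs were searched on both strands, so a match may be printed as its reverse complement. The GC box GGGCGG was found once before VIM, in 2 places before NES and in 4 before INA and before LMNB1, and 42.6% of all windows held at least 1. Each GC box holds a CG dinucleotide that is also counted above. The TATA box letters TATAAA, which 10.7% of windows hold, and the AP-1 letters TGANTCA, which 6.57% hold, were in none of these 4 stretches. The CCAAT box, the letters CCAAT, was found once before LMNB1, on the opposite strand, and not before the others (32% of windows), and the E-box CANNTG in 2 places before INA and once before LMNB1 (61.8% of windows). These are matches of letters in a short window and say nothing of binding.

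Genomic span moved with the fold change over the whole table. Across 14812 tested genes with a known span, the Spearman correlation of span with log2 fold change was -0.39, a description across genes of shared libraries. The quintile of genes with the shortest spans (up to 9139 bp) had a median log2 fold change of 0.20, and the quintile with the longest spans (from 101037 bp) one of -0.28. NES, NEFL, NEFM, KRT18 and KRT19 lie in the shortest quintile, VIM and INA in the next one (median 0.11), and KRT8, LMNA and LMNB1 in the fourth quintile (median -0.08). KRT18 at 0.23 and KRT19 at 0.20 thus lay near the median of genes of their span, while LMNA, spanning 57517 bp, lay at 1.05. The span of LMNA depends on the transcript taken. Its principal transcript spans 25383 bp, which would fall in the third quintile (median 0.015).

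After adjustment by offsets for genomic span, GC content and exon length, log2 fold changes were 0.82 for VIM, 0.78 for NES, 1.13 for NEFL, 0.25 for NEFM and 0.27 for INA, all still past the threshold. LMNA was at 1.25 and LMNB1 at -0.17, both past it. KRT18 was at -0.04 and KRT19 at -0.03, no longer past it and with the sign turned. KRT8 was at 0.17 and past it. The annotated span of KRT8, 52768 bp, depends on its start: the start that RefSeq lists lies 23373 bp from that of the principal GENCODE transcript. The direction of KRT18 and KRT19 and the call of KRT8 thus depend on this joint adjustment. The offsets were fitted in each library to deviations from the mean over all libraries of both compounds. Any difference between the compounds that follows span, exon length or GC content is therefore taken out with them. The part of span alone was not tested.

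**Figure D3:**
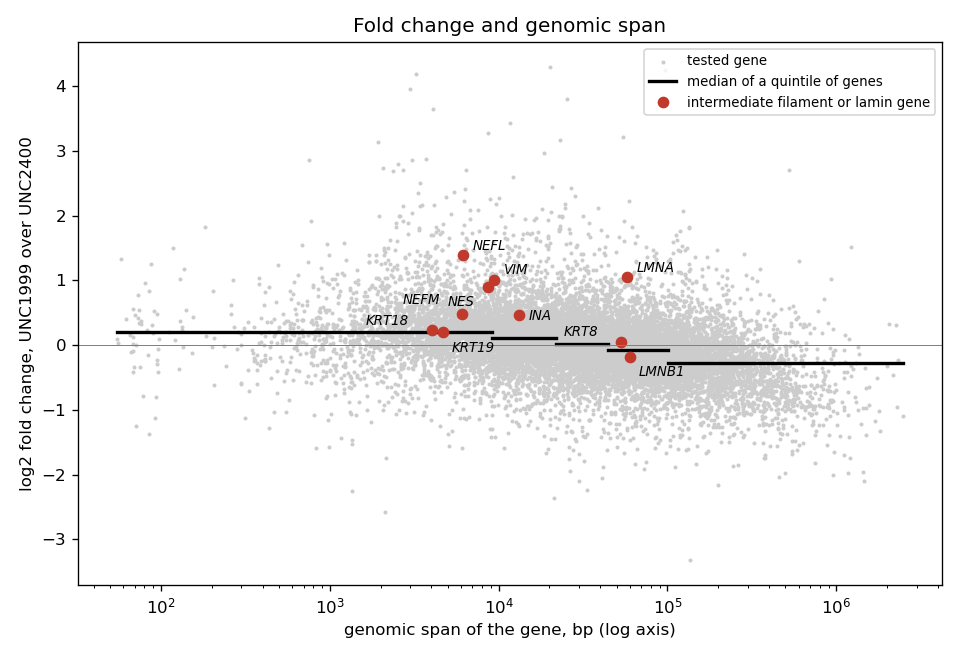
Log2 fold change of UNC1999 over UNC2400 against genomic span on a log axis, for tested genes in grey and the intermediate filament and lamin genes in red, with black lines at the median of each quintile of genes by span. KRT18 and KRT19 sit on the line of the shortest quintile (0.20), and LMNA sits far above that of the fourth quintile (-0.08).

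**Figure D4:**
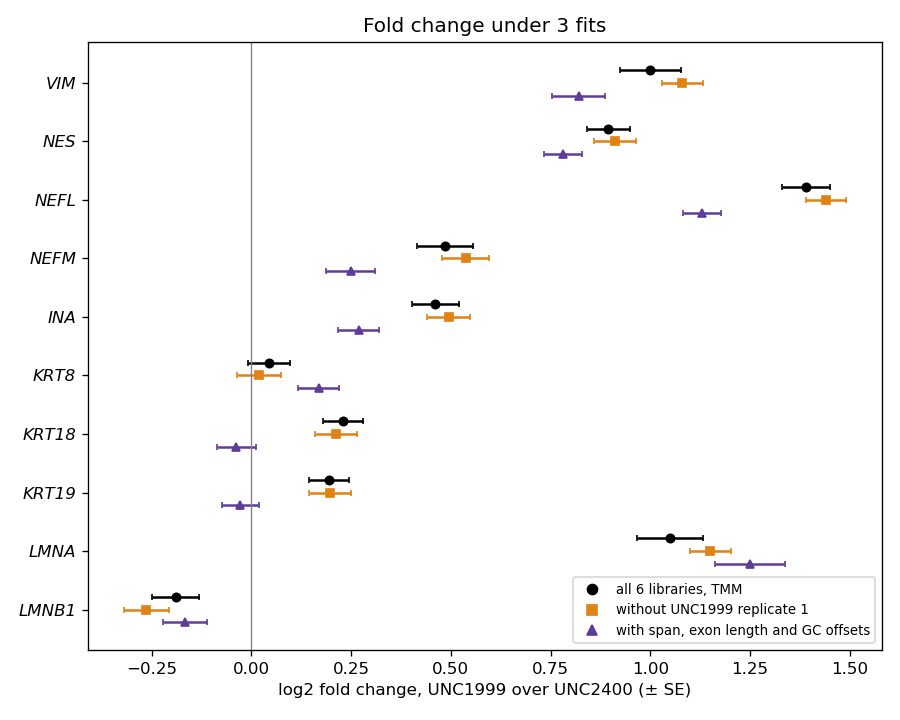
Log2 fold change ± SE of each gene from all 6 libraries (black), without UNC1999 replicate 1 (orange) and with span, exon length and GC offsets (purple). VIM, NES, NEFL, NEFM, INA and LMNA stay above 0 in all 3 fits, while KRT18 and KRT19 move to -0.04 and -0.03 with the offsets.

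Most other family genes had few or no counts. Of 60 other intermediate filament genes in the table, 20 had no count in any library. The 10 that passed the filter split into 4 called higher, 2 called lower and 4 not called, with a median log2 fold change of 0.21. Beside the 26.8% called higher and 25.9% called lower of all tested genes, nothing is read from these few. Of these, 9 reached 1 CPM in UNC2400, all but PRPH. Of the 51 other keratin genes only KRT10 and KRT7 were tested. KRT10, a type I keratin of the suprabasal epidermis, rose to 28.0 CPM in UNC1999, against 21.1 CPM in UNC2400 (log2 fold change 0.40 ± 0.06 SE; edgeR adjusted p = 4.20e-05), a call that ends with the span offsets (0.07). KRT7, a type II keratin of simple epithelia including trophoblast, had 2.02 CPM in UNC1999 and 2.11 CPM in UNC2400, and its log2 fold change was -0.08 (95% interval -0.47 to 0.32).

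NEFH, which encodes the heavy neurofilament protein, rose to 148 ± 12.1 CPM in UNC1999, against 107 ± 1.81 CPM in UNC2400 (SD, n = 3 each). The log2 fold change, 0.46 ± 0.06 (SE; edgeR adjusted p = 5.32e-06), was near those of NEFM and INA. PRPH, which encodes the type III protein peripherin of peripheral neurons, had 31, 45 and 64 counts in UNC1999 libraries, against 6, 9 and 11 counts in UNC2400 libraries. A gene that low in UNC2400 passes the filter on low counts only where UNC1999 is higher, so its call, 1 of the 4 above, is no evidence of a direction. GFAP, the type III protein of astrocytes, had 273 and 118 counts in UNC1999 and UNC2400 libraries (1.15 ± 0.22, SE; edgeR adjusted p = 0.000283). DES, which encodes the muscle protein desmin, fell to 6.23 ± 0.524 CPM in UNC1999, against 10.3 ± 0.21 CPM in UNC2400 (SD, n = 3 each; log2 fold change -0.72 ± 0.10 SE; edgeR adjusted p = 1.50e-05).

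Genes of proteins that tie filaments to junctions and other structures were mostly lower. Of 14 tested linkers 2 rose, 9 fell and 3 did not pass, with a median of -0.38 beside 0.02 over all tested genes. Called lower were 25.9% of all tested genes. DSP, which encodes desmoplakin, the desmosomal anchor of keratin filaments, rose to 175 ± 4.99 CPM in UNC1999, against 105 ± 6.9 CPM in UNC2400 (SD, n = 3 each). Its log2 fold change was 0.75 ± 0.06 (SE; edgeR adjusted p = 2.12e-08). DST, a spectraplakin that links filaments to other cytoskeletal polymers, fell to 121 ± 14.1 CPM in UNC1999, against 221 ± 19.8 CPM in UNC2400 (SD, n = 3 each; -0.87 ± 0.08, SE; edgeR adjusted p = 1.13e-07). The plakophilin genes PKP4 and PKP1, whose proteins belong to cell junctions, fell by 0.76 ± 0.07 and 1.30 ± 0.14 (log2, SE; edgeR adjusted p = 3.64e-07 and 7.89e-07). With the span offsets 8 linkers were called lower and 2 higher. MACF1, at -0.58 in the main fit, was no longer called there and its sign turned (0.07). With the span of the principal transcript 7 were lower, and PKP2 (-0.13) also lost its call. In the quintile of tested genes with the longest spans 54.4% were called lower. The part of span in the linker calls was not tested.

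Of 15 tested partners of the nuclear lamina, 4 rose, 5 fell and 6 did not pass, with a median of -0.10. This is near the share of all tested genes, of which 26.8% were called higher and 25.9% lower. Of the 4, LEMD3 (0.14) was no longer called with DESeq2, with no low-count filter and without any of 4 single libraries. SYNE2, which encodes nesprin-2, a giant outer nuclear membrane protein that binds actin, fell to 107 ± 14.4 CPM in UNC1999, against 216 ± 18.4 CPM in UNC2400 (SD, n = 3 each). Its log2 fold change was -1.01 ± 0.08 (SE; edgeR adjusted p = 4.02e-08). SUN1, an inner membrane protein that holds nesprins, fell by 0.35 ± 0.05 (log2, SE; edgeR adjusted p = 5.08e-05). BANF1, a chromatin-binding partner of lamins and LEM-domain proteins, rose by 0.37 ± 0.05 (edgeR adjusted p = 1.50e-05), a call that ends with the span offsets (0.09). LEMD2, a LEM-domain protein of the inner membrane, rose by 0.29 ± 0.05 (log2, SE; edgeR adjusted p = 0.000237). With the span offsets 7 partners were called lower and 4 higher. LBR (-0.16) and TOR1A (-0.14) were then newly lower. SYNE1, at -0.21 and not called in the main fit, was then called higher (0.525). Calls of this list thus depend in part on the offsets.

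Lamin A precursor and B-type lamins are farnesylated, trimmed and methylated at their tails. Of 5 tested genes of this route 2 rose, none fell and 3 did not pass (median 0.11), beside 26.8% called higher and 25.9% called lower of all tested genes. With so few genes, nothing is read from this count. RCE1, the protease that trims farnesylated tails, rose to 41.4 ± 2.19 CPM in UNC1999, against 27.4 ± 0.558 CPM in UNC2400 (SD, n = 3 each; log2 fold change 0.60 ± 0.06 SE; edgeR adjusted p = 4.62e-07). ICMT, the methyltransferase that acts next, rose by 0.14 ± 0.05 (log2, SE; edgeR adjusted p = 0.0225), a call lost with RLE scaling (adjusted p = 0.0512), DESeq2 (adjusted p = 0.0588) and 5 of the left-out libraries. With the span offsets its sign turned (-0.01). ZMPSTE24, the protease that matures lamin A, did not pass, at -0.07 (log2, 95% interval -0.17 to 0.03). With the span offsets ZMPSTE24 was called lower (-0.11, edgeR adjusted p = 0.0416). The farnesyltransferase subunit gene FNTA also missed the threshold in the main fit, at -0.12 (95% interval -0.22 to -0.01, edgeR adjusted p = 0.0521). AURKB, CDK1 and ROCK1, kinases that phosphorylate vimentin, did not pass the test, with log2 fold changes of -0.09, 0.07 and -0.06 (edgeR adjusted p = 0.151, 0.34 and 0.357).

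**Figure D5:**
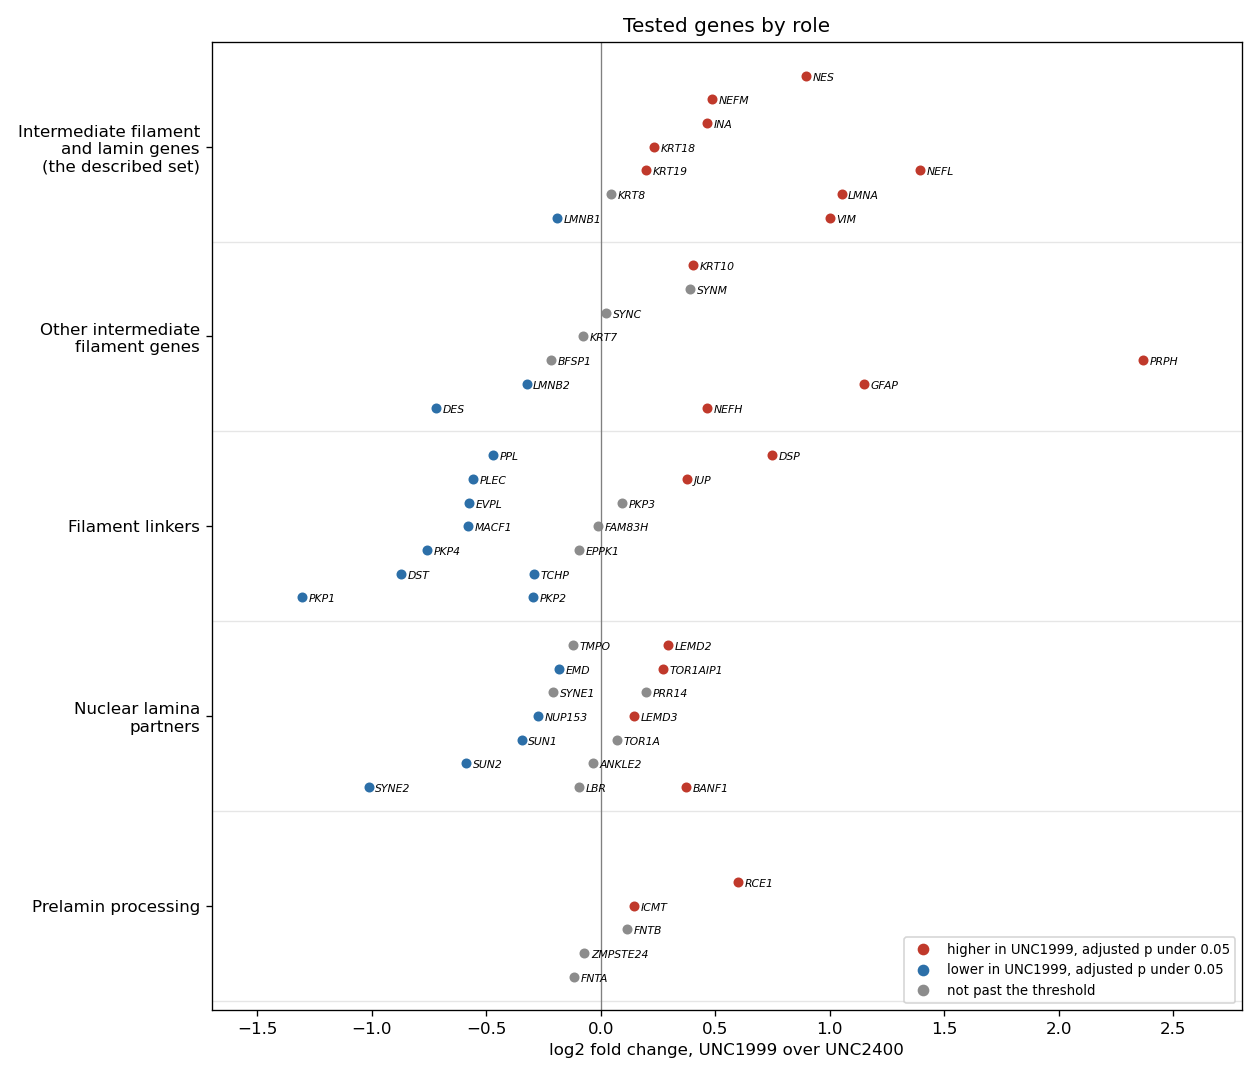
Log2 fold change of UNC1999 over UNC2400 for tested genes of the chosen set, the rest of the intermediate filament family, filament linkers, nuclear lamina partners and prelamin processing, coloured by call. Of the linkers 9 lie to the left of 0 in blue and 2 to the right in red, and DSP lies at 0.75.

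Since these filament genes also mark other cell types, marker lists were read beside them. Of all tested genes 26.8% were called higher and 25.9% lower. Beside these shares nothing is read from the counts of called markers in any list, here or below. The pluripotency factor genes POU5F1, NANOG and SOX2 were at 1024, 103 and 452 CPM in UNC1999, and at 1393, 113 and 455 CPM in UNC2400, so defining markers of the labelled cell type were well expressed in both groups. Of 7 pluripotency markers 3 fell and none rose, and their summed level was 5231 to 5811 CPM in UNC1999 and 6211 to 6313 CPM in UNC2400. Of 10 neural markers 8 were tested, of which 1 rose (STMN2) and 4 fell, with a summed level of 382 to 404 CPM in UNC1999 and 399 to 416 CPM in UNC2400. Of the defining neural genes PAX6 was detected, at 1.45 CPM in UNC1999 and 1.36 CPM in UNC2400, and was not called. SOX1 and NEUROD1 had 4 and 2 counts over the UNC1999 libraries, and 1 count each over the UNC2400 libraries.

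Of 10 fibroblast or feeder markers 7 were tested, of which 2 rose and 5 fell. Their summed level was 212 to 225 CPM in UNC1999 and 314 to 343 CPM in UNC2400. Of the 2, PDGFRB had 13, 31 and 9 counts in UNC1999 libraries, against 1, 7 and 11 in UNC2400 libraries. Its groups overlapped at these low counts (edgeR adjusted p = 0.044), so nothing is read from its call. The defining genes COL3A1, DCN and LUM of this list had 14, 4 and 1 counts in UNC1999, and 13, 1 and 0 counts in UNC2400. COL1A2, also defining, had 85.5 CPM in UNC1999 and 137 CPM in UNC2400. Of 11 trophoblast markers 4 were tested and none was called by edgeR, with summed levels of 53.6 to 55.4 CPM in UNC1999 and 51.2 to 52.5 CPM in UNC2400. Of its defining genes KRT7 is given above, and GATA3 and ELF5 had 17 and 8 counts in UNC1999, and 6 and 7 counts in UNC2400. Of 6 amnion markers 3 were tested, of which 1 rose and 1 fell (29.5 to 31.2 CPM in UNC1999 and 27.5 to 28.5 CPM in UNC2400). Its defining genes GABRP, ISL1 and VTCN1 had 407, 10 and 3 counts in UNC1999, and 458, 20 and 7 counts in UNC2400. In the list of stratified epithelium KRT14 and IVL were at 0 in all 6 libraries, KRT5 had 3 counts in UNC1999 and 0 in UNC2400, and KRT10, which is also counted with the family above, was the only gene tested (27.6 to 29.2 CPM in UNC1999 and 21.4 to 21.7 CPM in UNC2400, summed). The part that such cells might have in the levels of the filament genes was not tested.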

How the data were processed

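Poly(A)-selected libraries were made from 200 ng of RNA with a strand-marking kit, per the labels' protocols. The authors deposited raw counts per gene name, marked as having duplicates removed. The tools were, per the submitters' processing notes, featureCounts, Subread 1.5.0, TopHat2 2.0.13 and Trim Galore 0.4.0, on build hg19, with roles unstated. No source used here gives the annotation, the strand setting or the handling of multiple matches. The authors' deposited log2 values, marked batch-corrected, and their deposited p-values and test scores were not used. Their deposited log2 fold changes served as a check only: the 10 genes differed by at most 0.025 from those given here.

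The quasi-likelihood test of edgeR 4.0.16 (R 4.3.3) was run on the counts with TMM scaling, group as the only term and the default low-count filter. It was two-sided, with calls at an adjusted p under 0.05, and was tested on simulated data beforehand. SEs and 95% intervals derive from the same fit. Alternatives were RLE and upper-quartile scaling, no filter, DESeq2 1.42.0, limma-voom (limma 3.58.1), a replicate block, left-out libraries, and offsets for span, exon length and GC from GENCODE release 29 (GRCh38, by gene name; 84.2% of tested genes and all 10 genes matched). Offsets with the principal transcript's span were added after the data were seen. The genes and lists were chosen with earlier results of these data known. All 10 genes, and up to 4 tested genes per list with the smallest p, were to be named, as was the gene most alike to each of the 10. Some genes that this rule selects are not reported here.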

Additional observations from a re-analysis of the deposited data

How the results depend on the processing

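VIM, NES, NEFL, NEFM, INA and LMNA kept their direction and their side of the threshold in all alternatives run. Their log2 fold changes ranged over 0.82 to 1.08, 0.78 to 0.92, 1.13 to 1.44, 0.25 to 0.54, 0.27 to 0.495 and 0.96 to 1.25. KRT18 turned to -0.0377 with the span, exon length and GC offsets, -0.0391 with the replicate block added to them and -0.0163 with the span of the principal transcript, and KRT19 to -0.0276, -0.0283 and -0.00958. KRT8 passed as higher in those fits (0.169, 0.168 and 0.197), so that the count of 7 higher there holds different genes from the 8. Leaving out single libraries gave 7 to 8 genes higher and 0 to 1 lower.

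Libraries of the same replicate number were weakly alike. Deviations of same-numbered libraries from their group means correlated at 0.13, 0.079 and 0.23. Each UNC1999 library correlated best with its own number. The main fit, with group as its only term, leaves this weak likeness out. With the replicate block alone 8 of the 10 genes were higher and 1 lower, as without it, and 4867 genes were higher and 4695 lower over the table, against 4714 and 4554.

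Of the other intermediate filament genes 7 were higher with no low-count filter, against 4. The added ones, seen only after their values were known, were SYNM, KRT16 (19 counts in UNC1999, 1 in UNC2400) and KRT86 (17 and 1). Prelamin processing had 1 gene higher with RLE scaling, no filter, DESeq2, both offset fits and the principal span. It had 1 lower with RLE scaling (FNTA) and 1 lower with both offset fits (ZMPSTE24). Filament kinases and turnover had 3 higher and 1 lower with each kind of offsets. Left-out libraries gave 1 to 2 higher and 0 to 1 lower in prelamin processing, 1 higher and 0 to 1 lower in kinases and turnover, 4 to 5 higher and 2 to 3 lower in other intermediate filament genes, 3 to 4 higher and 4 to 7 lower in lamina partners. For the changes with the offsets and filters the cause was not tested.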
